A study of Mus musculus with 1457 samples.

Results

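Hemogenic endothelium (HE) lacking both Gfi1 and Gfi1b was compared with heterozygous HE from the aorta-gonad-mesonephros region of E10.5 mouse embryos of the ICR strain. The cells were chosen by their labels, as all HE sorts at stage E10.5 of the Gfi1/Gfi1b reporter line, and by 2 limits on read content. Of 42 deposited KO cells 37 were kept, and of 95 het cells 79, out of 1457 single cells in the series. Cells with under 100000 reads were left out (2 KO cells), as were cells with 1% or more of their reads in 7 globin genes (4 KO cells, 1 of which also had few reads, and 16 het cells). The depth limit fell into a wide gap: the lowest kept depth was 217358 reads and the 2 shallow KO cells had at most 65 reads. The globin limit did so in het cells. There no kept cell had more than 0.211% globin reads and the lowest share left out was 46.3%. In KO no kept cell had more than 0.00928%. The lowest share left out there, 3.08%, came from a shallow cell of 65 reads and so rests on very few reads.

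KO cells carried Gfi1:Tomato/Tomato Gfi1b:GFP/GFP, so that both alleles of each gene are reporter knock-ins, and het cells carried Gfi1:Tomato/WT Gfi1b:GFP/WT. Both came through one gate, TER119-CD41-CD45-KIT-CDH5+GFI1+GFI1b-, in which GFI1 and GFI1B stand for the reporters. KO cells carry more copies of each reporter than het cells, so reporter dose and genotype cannot be told apart in that gate. Single cells were sorted into wells and polyadenylated RNA was read by a modified Smart-seq2 protocol, a full-length method without molecular identifiers. Further sorts of the het line at E10.5 are set beside them: GFI1-negative endothelium (Endo, 73 cells), cells in endothelial-to-hematopoietic transition (EHT, 41 cells) and intra-aortic hematopoietic clusters (IAHC, 42 cells). Another sort holds 39 het HE cells that are titled E11.5 while their stage field says E10.5.

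GFI1 and GFI1B are zinc-finger repressors that bind DNA and recruit, through a short SNAG domain, the histone demethylase LSD1 with its CoREST partners. In the aortic wall they are switched on downstream of RUNX1 and silence endothelial genes, so that flat HE cells round up and leave the wall as blood cells. Without both factors, embryos are known to form HE but not intra-aortic clusters.

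No label names an embryo or litter, so each genotype counts as 1 sample and no test between genotypes is possible. Intervals are exact at 95% and cover counting error of reads or cells only. The numbers in the cell titles are the only other grouping. KO cells form 1 run of consecutive numbers, and het cells form 4 separate runs, here called run 1 to run 4 in the order of their numbers, with 42, 16, 5 and 16 kept cells. What the runs stand for is not stated. Het values are therefore given over all 79 cells and as the range over these 4 runs. KO cells were shallower, with a median of 410549 reads per cell (252891 to 773904) against 628989 (217358 to 1082667), but had more genes with a read, a median of 6957 against 6609. The sexes differ: 35 of 37 KO cells had reads of Y-linked genes and none had Xist reads, for which the limit used here, 3 cells of the total, comes to 8.11%, while 36 het cells had Y-linked reads and 40 had Xist without Y-linked reads. Sex and genotype can thus be told apart only within cells with Y-linked reads, here called male cells (35 KO, 36 het), and values for these are given where they matter.

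Levels are reads summed over the cells of a sort per 1000000 summed reads (CPM). A gene counted as measured with at least 5 CPM in the higher sort and over 3 reads, which held for 10962 genes. Of these 6.32% were at least 2-fold higher in KO and 11.46% at least 2-fold lower, with a median log2 ratio of -0.12. A stricter count, at least 2-fold beyond each of the 4 het runs, gave 2.13% of genes above and 2.13% below. These shares are the background for every list that follows.

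Both targeted genes were read first. Gfi1 (chr5:107716657-107726036 of GRCm38, minus strand) had 241.5 CPM (233.9 to 249.4) in KO HE and 72.9 CPM (70.6 to 75.2) in het HE, with the het runs between 42.1 and 94.6 CPM. Over single KO cells Gfi1 ran from 0 to 584.5 CPM with a median of 212.9, and over het cells from 0 to 399.2 with a median of 0. Gfi1 reads were found in 35 of 37 KO cells (94.6%, 81.8 to 99.3%) and in 38 of 79 het cells (48.1%, 36.7 to 59.6%), and the shares were 94.6% and 45.6% with each cell thinned to 100000 reads. The log2 ratio of Gfi1 was 1.73, and it was 2.20 among male cells. The level in KO lay above that of EHT (136.5 CPM) and IAHC (69.7 CPM), and Endo had 0 CPM. A gene count cannot show which exons the reads come from, so these reads do not check the knock-in itself, and the gate selects on the same locus.

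Gfi1b (chr2:28609450-28621982, minus strand) had 0.510 CPM in KO, from 8 reads in 2 cells, and 9.06 CPM in het HE, from 8 cells. Among the het runs it ranged from 0 to 16.9 CPM, nearly all of it in run 1. Its level in EHT was 50.1 CPM and in IAHC 156.4 CPM, so HE of either genotype lay at the low end, as a gate without the GFI1B reporter selects for. The ratio of Gfi1b turned round against the later het runs and without the cell limits, and no direction is drawn from it.

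The genes of the gate and of the HE state were then compared. Runx1, the factor that opens the blood program, had 106.2 CPM in KO and 80.97 CPM in het HE, within the het runs (7.37 to 118.7 CPM). Cdh5, the endothelial cadherin on which the cells were sorted, had 447.5 CPM in KO and 912.9 in het HE, below all 4 het runs (588.2 to 1464 CPM), and was read in all 37 KO cells. Kit, the stem cell factor receptor, had 290.6 CPM against 148.03, above the het runs (34.3 to 199.5), although the gate is negative for the protein. Itga2b, which encodes CD41, had 27.3 CPM against 11.4, with reads in 17 of 37 KO cells and 18 of 79 het cells. Ptprc, which encodes CD45, had 13.3 CPM in KO, all of it from 2 cells, and 2.38 CPM in het from 1 cell. Of the 20 listed pan-endothelial genes the median cell of each genotype had reads of 19. No KO cell fell below 17, while 78 of 79 het cells had at least 10 and 1 het cell, in run 4, had 5.

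The best separated group was glucose transport and glycolysis. Of 22 listed genes, all measured, 14 were at least 2-fold higher in KO (63.6%, against 6.32% of all measured genes) and 0 lower, and the median log2 ratio was 1.26. Against each of the 4 het runs, 17 of the 22 were above all runs, 10 of them by at least 2-fold. Summed over the list, single KO cells ran from 4768 to 22751 CPM with a median of 12601, and single het cells from 1202.8 to 9038 with a median of 5275. The groups hardly overlapped: 34 of 37 KO cells lay above the highest het cell, and no het cell reached the KO median. The median of the list was 1.13 among male cells, 1.15 against het run 1, and 1.13 with both limits together, where 12 het cells remain.

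**Figure D1:**
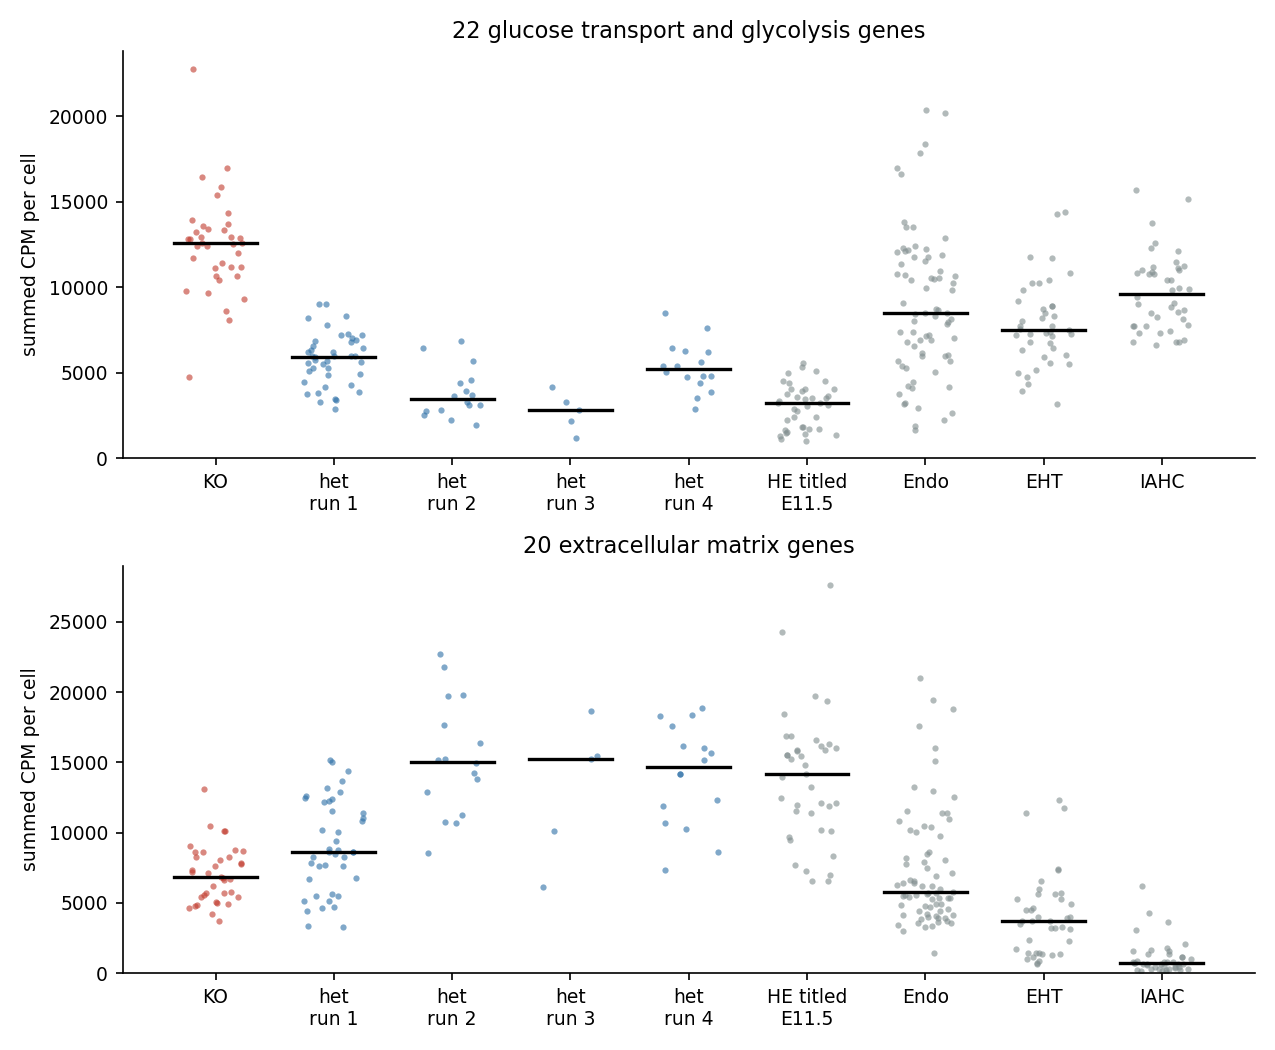
Summed CPM per cell of the glycolysis list (top) and the extracellular matrix list (bottom) in KO HE, the 4 runs of het HE and other het sorts; each point is 1 cell and each bar the median. For glycolysis 34 of 37 KO cells lie above the highest het HE cell at 9038 CPM, while Endo, EHT and IAHC cells overlap with KO; for matrix genes the KO cells overlap with het run 1.

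In the order of the pathway, glucose enters through 2 facilitated transporters. Slc2a3 (chr6:122727809-122801640, minus strand), the high-affinity transporter GLUT3, had 403.3 CPM (393.4 to 413.3) in KO against 56.4 CPM (54.4 to 58.5) in het HE, with het runs from 0.404 to 78.96 CPM. Per cell Slc2a3 reached from 0 to 1602 CPM in KO with a median of 264.99, and from 0 to 377.1 in het with a median of 0. It was read in 34 of 37 KO cells (91.9%) and 34 of 79 het cells (43.04%), with 91.9% and 37.97% after thinning, and its log2 ratio was 2.84. The KO level also lay above Endo (14.5 CPM), EHT (110) and IAHC (79.5). Slc2a1, which encodes GLUT1, had 857.6 CPM against 383.9, above the het runs (226.98 to 523.7), while Endo had 911.7 CPM.

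Hexokinases commit glucose to the cell by phosphorylation. Hk1 had 57.01 CPM in KO and 64.7 in het HE. Hk2 had 50.7 CPM against 31.7, just above the het runs (3.23 to 46.8), with reads in 67.6% of KO and 39.2% of het cells, and its log2 ratio of 0.68 was 0.11 against het run 1 and 1.81 against the later runs. Gpi1, the isomerase of the next step, had 435.3 CPM against 275.7. Phosphofructokinase, the main control point, differed by subunit: Pfkl had 346.6 CPM against 125.2 and Pfkp 36.8 against 7.05, whereas Pfkm had 30.5 against 28.1. Pfkfb3, which makes the activator of that step, had 23.9 CPM against 33.8.

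The enzymes that split and oxidise the sugar were higher almost throughout. Aldoa, the main aldolase, had 1911 CPM against 982.1, just under 2-fold, and Aldoc 5.42 against 0.0966 from 5 KO cells. Tpi1 had 1049.3 CPM against 399.4 and Gapdh 1332 against 364.8. Gapdh was read in every cell of both genotypes, and 31 of 37 KO cells lay above the highest het cell. Several of these genes have near-identical processed pseudogenes, so their levels are uncertain where the counting split or dropped shared reads.

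Pgk1 (chrX:106187100-106203699, plus strand), phosphoglycerate kinase, makes the first ATP of the pathway. It had 575.2 CPM (563.4 to 587.2) in KO and 158.8 CPM (155.4 to 162.2) in het HE, with het runs from 65.8 to 211.9 CPM. Single KO cells ran from 129.4 to 953.9 CPM with a median of 575.2, and single het cells reached 526.6 CPM with a median of 133.6. No het cell lay above the KO median and 21 of 37 KO cells lay above the highest het cell. The log2 ratio of Pgk1 was 1.86. Because Pgk1 is X-linked and the KO cells were male, the male het cells are the closer comparison: they had 137.1 CPM against 562.8 in male KO cells, a log2 ratio of 2.04.

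The last steps followed the same direction. Pgam1 had 172.9 CPM against 55.6, Eno1 1120.6 against 458.8 and Pkm, pyruvate kinase, 1304 against 577.2. Ldha, which turns pyruvate into lactate, had 2319 CPM against 984.1 and lay above all het runs (686.96 to 1150.02), while Endo (2051), EHT (2004) and IAHC (2202) were near the KO level. Ldhb, which favours the reverse reaction, had 21.2 CPM against 26.8. Of the lactate carriers, Slc16a3 (MCT4, an exporter) had 52.9 CPM against 12.1 and Slc16a1 (MCT1) 47.8 against 31.7. Pdk1, the kinase that closes the entry of pyruvate into mitochondria, had 176.6 CPM against 63.3 over all het cells, but 228.9 CPM in 1 het run of 5 cells.

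**Figure D2:**
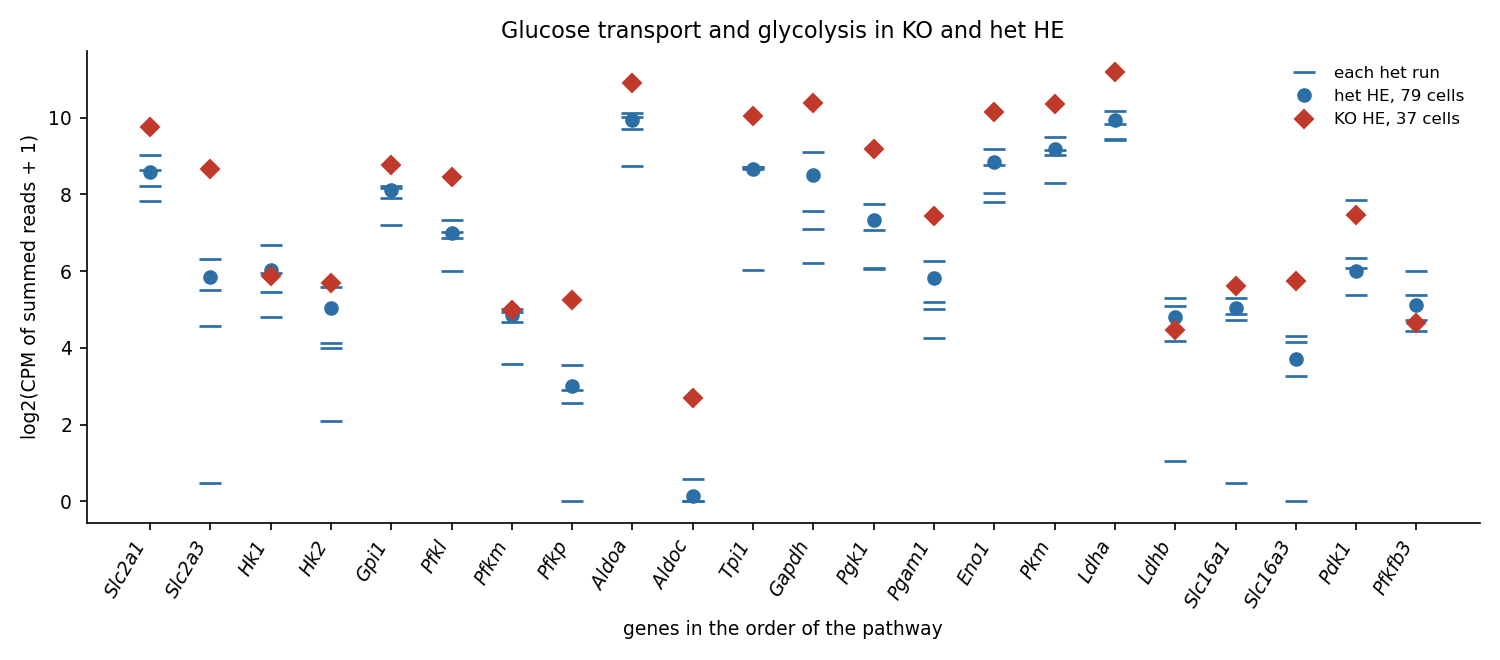
Level of each of the 22 glucose transport and glycolysis genes as log2(CPM of summed reads + 1), ordered along the pathway, in 37 KO cells (diamonds), 79 het cells (circles) and each of the 4 het runs (dashes). KO lies above all 4 runs for 17 genes, among them Slc2a3 at 403.3 CPM and Pgk1 at 575.2 CPM, and within them for members such as Hk1, Pfkm and Ldhb.

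The mitochondrial side gave no such difference. None of 26 measured subunits of the respiratory chain and ATP synthase was 2-fold apart in either direction, and their median log2 ratio was -0.02. The widest were Atp5c1, with 748.5 CPM in KO against 543.03, and Uqcrq, a subunit of complex III, with 228.2 against 365.8. The summed level was 10613 CPM in KO and 10137 in het HE, with het runs between 6718 and 10493.

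Glycolytic genes are classic targets of the hypoxia-inducible factors (HIF), transcription factors whose alpha subunits are destroyed when oxygen is present, after hydroxylation by the EGLN enzymes and capture by VHL. HIF binds a short core, ACGTG or GCGTG, near its targets. The promoter windows of RefSeq (GRCm38.p6, from 250 bases before to 50 after each start) were searched for ACGTG on both strands. It is held by 5886 of 27025 genes with a window (21.8%), by 2516 of the 8325 measured genes with a window (30.2%), by 14 of 21 glycolysis genes (66.7%), by 16 of 18 listed HIF targets outside glycolysis (88.9%), by 5 of 18 respiratory chain genes and by 0 of 19 arterial genes. The HIF target list was drawn from known HIF biology, and the other lists by pathway or cell type. The shares describe the members of each list and add nothing on the KO. A match is only a string of letters and was not tied to binding here. The windows of 3 members that hold the element are shown with every ACGTG or its reverse complement in capitals, to show where it lies; CACGTG reads as the core on both strands. They were picked for holding it: a further Ldha window and the windows of Pfkp and Pdk1, which also differed by over 2-fold, hold no ACGTG. The other core, GCGTG, occurs 4 times in the Pfkp window, 2 times in 1 Pdk1 window and 2 times in that Ldha window. One core or the other is held by 43.8% of all windows.
Pgk1, chrX:106186850-106187149, plus strand: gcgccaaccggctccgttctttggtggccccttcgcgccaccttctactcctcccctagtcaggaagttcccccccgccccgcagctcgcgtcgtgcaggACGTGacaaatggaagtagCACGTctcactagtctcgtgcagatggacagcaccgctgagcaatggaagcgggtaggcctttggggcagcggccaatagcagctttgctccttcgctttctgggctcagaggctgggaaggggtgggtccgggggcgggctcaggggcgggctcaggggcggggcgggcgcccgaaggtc
Bnip3, chr7:138909457-138909756, minus strand: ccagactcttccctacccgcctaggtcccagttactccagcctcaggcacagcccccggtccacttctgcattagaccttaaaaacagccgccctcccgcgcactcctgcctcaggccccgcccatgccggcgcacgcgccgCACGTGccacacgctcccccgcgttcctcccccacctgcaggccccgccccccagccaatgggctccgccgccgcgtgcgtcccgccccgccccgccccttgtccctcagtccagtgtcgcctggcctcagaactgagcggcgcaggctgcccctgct
Ldha, chr7:46845554-46845853, plus strand: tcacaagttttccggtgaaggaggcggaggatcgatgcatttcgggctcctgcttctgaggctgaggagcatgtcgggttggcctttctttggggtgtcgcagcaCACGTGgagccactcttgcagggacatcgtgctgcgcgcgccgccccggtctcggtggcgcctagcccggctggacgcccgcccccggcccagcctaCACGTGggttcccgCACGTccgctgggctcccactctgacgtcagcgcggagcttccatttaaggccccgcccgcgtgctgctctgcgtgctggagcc

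HIF targets outside glycolysis were also higher in KO. Of 22 measured genes of 23 listed, 9 were at least 2-fold higher (40.9%) and 1 lower, with a median log2 ratio of 0.48, and 8 were at least 2-fold above each of the 4 het runs. Summed per cell they ran from 1075.8 to 3952 CPM in KO (median 2671) and from 491.5 to 2375 in het (median 1118.4), and 23 of 37 KO cells lay above the highest het cell. EHT (2300 CPM) and IAHC (2477) had sums near that of KO (2635). The median of the list was 0.76 among male cells and 0.97 against het run 1.

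Bnip3 (chr7:138890836-138909519, minus strand), which marks mitochondria for removal, had 29.4 CPM (26.8 to 32.2) in KO and 3.09 CPM (2.63 to 3.61) in het HE, with het runs from 0 to 4.06 CPM. Single KO cells ran from 0 to 157.4 CPM with a median of 22.8, and single het cells from 0 to 51.7 with a median of 0. Bnip3 was read in 28 of 37 KO cells (75.7%, 58.8 to 88.2%) and 12 of 79 het cells (15.2%, 8.10 to 25.03%), and in 67.6% and 13.9% after thinning. Its log2 ratio was 3.25, and 3.90 among male cells.

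**Figure D3:**
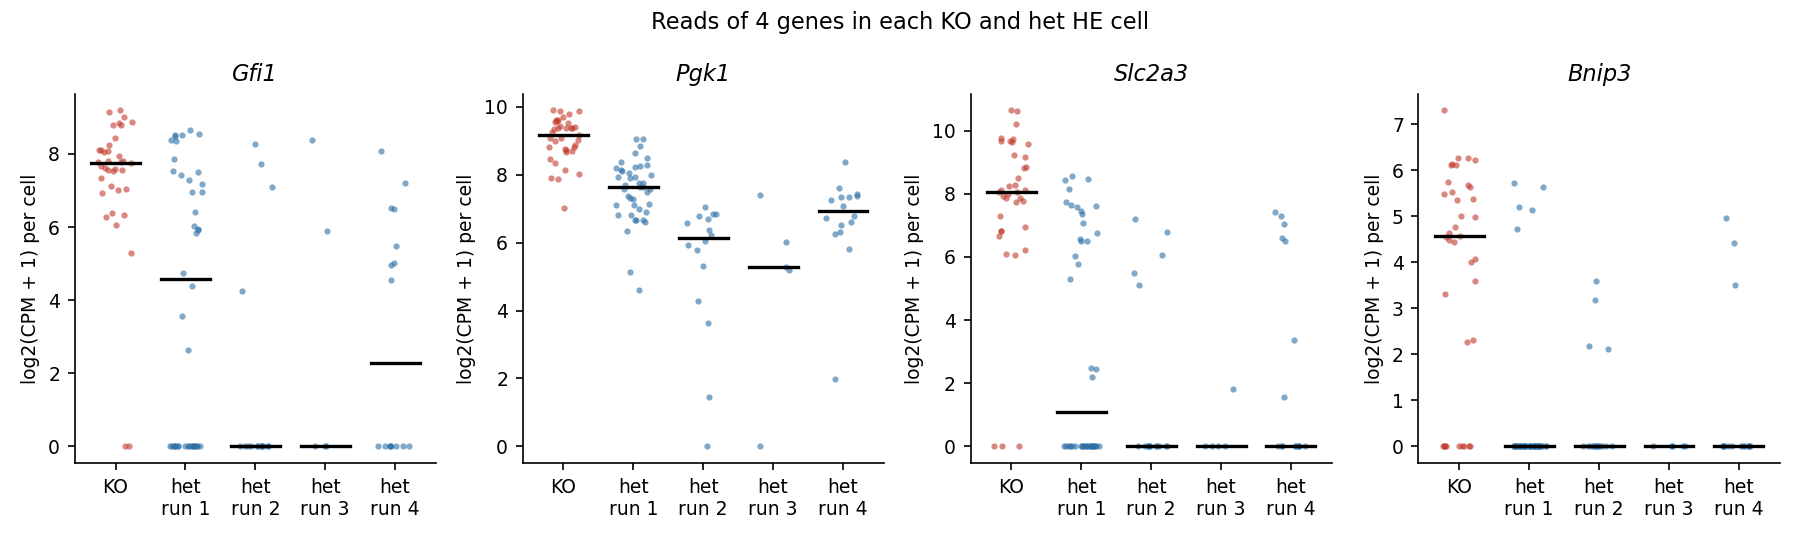
Level of Gfi1, Pgk1, Slc2a3 and Bnip3 as log2(CPM + 1) in each cell of KO HE and of the 4 runs of het HE; bars are medians. The median KO cell has 212.9, 575.2, 264.99 and 22.8 CPM, while over all het cells the median is 0 for Gfi1, Slc2a3 and Bnip3 and 133.6 CPM for Pgk1.

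Among the other targets, Adm, the vasodilator peptide adrenomedullin, had 35.01 CPM in KO from 10 cells and 1.53 CPM in het from 1 cell. Ndrg1, a growth-arrest gene, had 30.4 CPM against 3.55 and Ankrd37, a small ankyrin-repeat protein, 44.6 against 7.59. Mif, a cytokine, had 1586 CPM against 480, with EHT (1544) and IAHC (1778) at the KO level. Of the collagen prolyl hydroxylases, P4ha1 had 148.4 CPM against 51.5 and P4ha2 17.7 against 7.71. Not every target differed: Vegfa had 9.18 CPM against 14.01, and the transferrin receptor Tfrc was lower, with 18.1 CPM against 48.9.

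The HIF system itself differed in few genes. Of 9 measured regulators 1 was at least 2-fold higher and 1 lower (11.1% each, against 6.32% and 11.46% of all measured genes). Egln3, an oxygen sensor that HIF also induces, had 47.6 CPM in KO against 17.1 in het HE. Epas1, which encodes HIF-2 alpha, had 273.5 CPM against 587.1, below the het runs (431.1 to 963.02). Hif1a, which encodes HIF-1 alpha, had 170 CPM against 138.1 and lay within them. HIF protein was not measured.

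Rac2, a small GTPase of blood cells, had been listed as a marker of this comparison but was close to absent in both genotypes. It had 3.63 CPM (2.75 to 4.71) in KO and 0.483 CPM (0.313 to 0.713) in het HE, below the level needed to count as measured. The reads came from 2 of 37 KO cells (5.41%, 0.661 to 18.2%) and 1 of 79 het cells (1.27%, 0.0320 to 6.85%). EHT had 41.2 CPM and IAHC 287.01, so Rac2 reads in KO HE stayed far below those of cells in transition.

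Other genes of blood cells gave a mixed picture. Of 17 measured genes of leukocyte signalling and cytoskeleton 3 were at least 2-fold higher (17.6%), all of them above each het run by 2-fold, and 0 lower. Coro1a, an actin regulator, had 168.9 CPM against 44.2, with reads in 26 of 37 KO cells and 35 of 79 het cells, and EHT had 296.5 CPM. Gmfg had 56.8 CPM against 14.9 and Lcp2, an adaptor of immune receptors, 17.2 against 4.12. Against male het cells of het run 1, the log2 ratios were 0.63 for Coro1a and 0.47 for Lcp2, so the difference was smaller there, while it was 1.26 for Gmfg.

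Hematopoietic transcription factors showed 1 gene higher (4.55%) and 3 lower (13.6%) of 22 measured, near the 6.32% and 11.46% of all measured genes. Hhex, a homeobox factor of early endothelium and blood, had 287.01 CPM in KO against 115.97, above the het runs (80.2 to 148.9). The 3 lower genes were Myb, with 17.98 CPM against 37.2, Nfe2, with 8.48 against 28.3, and Ikzf1, with 1.91 against 8.83. In het HE each of them came mostly from het run 1, and against the later runs none was lower in KO. EHT had 170.7 CPM of Myb, 163.1 of Nfe2 and 111.7 of Ikzf1, so both HE sorts lay far below. Of 11 measured hematopoietic surface genes 3 were higher (27.3%), Ptprc and Itga2b among them. The other was Procr, the endothelial protein C receptor found on stem cell precursors. Procr had 612.3 CPM against 274.8, above the het runs (221.1 to 332.8) and above EHT (192.8). Against het run 1, 2 of the 11 surface genes were at least 2-fold higher and 2 lower. Under the alternatives tried, the narrowest log2 ratios were 0.78 for Itga2b and 0.77 for Procr, both under 2-fold. That of Ptprc turned round, to -2.51.

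Genes of growth were read for comparison. Mycn had 224.8 CPM in KO against 72.02, above the het runs (16.8 to 110.9) and below EHT (372.3). Its narrowest log2 ratio under the alternatives tried was 0.50. It was the only 1 of 18 genes listed under ribosome biogenesis at least 2-fold apart. The list summed to 6941 CPM in KO and 4903 in het HE, with het runs from 3499 to 5772. Its median log2 ratio was 0.22, and -0.09 against het run 1. Npm1, a nucleolar chaperone with many pseudogenes, had 3652 CPM against 1879. None of 19 DNA replication genes and none of 20 mitosis genes was 2-fold apart, with median log2 ratios of 0.16 and -0.18.

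Endothelial genes were lower in part, and how far depended on the het run. Of 20 pan-endothelial genes 0 were at least 2-fold higher and 5 lower (25%, against 11.46% of all measured genes), with a median log2 ratio of -0.20, and 0.09 against het run 1. Their sum was 9765 CPM in KO, close to that of run 1 (9968) and below the others (10964 to 18854). Cd34, a surface sialomucin, had 482.005 CPM against 1538 and lay below every het run (1197.2 to 2163), and Eng, the endothelial TGF-beta co-receptor, had 201.3 CPM against 514.3 (runs 384.2 to 784.3). Kdr, the main VEGF receptor, had 208.3 CPM against 516.9 (runs 352.7 to 890.6) and Emcn 262.7 against 582.8 (runs 416.5 to 880). Cdh5 made up the count of 5. Against het run 1 only Cd34 and Eng stayed at least 2-fold lower, and against the 12 male cells of that run none of the 5 did, with log2 ratios of -0.98 for Cd34, -0.43 for Eng, -0.037 for Kdr, -0.59 for Emcn and -0.19 for Cdh5.

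Arterial genes were lower in part too. Of 21 measured 0 were higher and 7 lower (33.3%), 6 were at least 2-fold lower against het run 1 alone and 5 beyond each run, against 2 and 1 of the pan-endothelial genes. The list had a median log2 ratio of -0.45, which was -0.11 against het run 1 and 0.07 against its male cells. Cxcr4, the chemokine receptor, had 2.17 CPM in KO against 43.7 (runs 31.2 to 100.9), with reads in 7 of 37 KO cells (18.9%) and 53 of 79 het cells (67.1%), or 5.41% and 60.8% after thinning. Gja5, the arterial connexin 40, had 316.6 CPM against 1026.99 (runs 704.03 to 1683), and Hey2, a Notch target repressor, 28.5 against 96.7 (runs 60.1 to 197.9). Jag1, a Notch ligand, had 127.98 CPM against 278.9 (runs 231.5 to 590) and Tm4sf1 40.6 against 209.3 (runs 96.5 to 272.5). Under the alternatives tried, the narrowest log2 ratios were -0.91 for Gja5, -0.52 for Hey2 and -0.57 for Jag1, all under 2-fold. Those of Cxcr4 and Tm4sf1 stayed past it, at -3.60 and -2.05. By contrast Sox17, an arterial factor, had 306.6 CPM against 181.6, above the het runs (150 to 227.8).

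Extracellular matrix genes were lower by the pooled count. Of 19 measured genes of 20 listed 0 were higher and 10 lower (52.6%), with a median log2 ratio of -1.01, and 14 lay below all 4 het runs, 4 of them by at least 2-fold. Per cell the sum ran from 3693 to 13102 CPM in KO (median 6837) and from 3296 to 22692 in het (median 11433), so the groups overlapped. Against het run 1 the median log2 ratio was -0.58 and 6 of the 19 were at least 2-fold lower, or 4 where the 5 CPM minimum is applied to that comparison itself. By the count beyond each run, 4 of 19 matrix genes stood beside 5 of 21 arterial genes. Eln, the elastic fiber protein, had 0.893 CPM in KO from 1 cell against 45.2 CPM in het from 39 cells (runs 26.9 to 74.2). Fn1, fibronectin, had 1980 CPM against 3410 (runs 2960 to 4099) and Fbn1, fibrillin, 276.9 against 688.7 (runs 572.2 to 1097.1).

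Part of the matrix list is also made by mesenchyme, and some but not all mesenchyme markers were lower too. Col3a1 had 1.59 CPM in KO against 44.9, and Col1a2 1.28 against 12.7. Col1a1 had 0 reads in KO and 5.99 CPM in het, at least 31.3-fold lower over all het cells against the limit of 3 reads. Under the alternatives tried, the narrowest log2 ratios were -2.18 for Col1a1, -2.69 for Col3a1 and -2.63 for Col1a2. The mesenchymal receptors Pdgfra (0.510 against 16.4 CPM) and Pdgfrb (0 against 8.06) were low or absent in KO. Their narrowest log2 ratios under the alternatives tried were -2.43 and -1.06. The 16 mesenchyme markers summed to 107.1 CPM in KO and to 92.3, 185.6, 200 and 411.7 CPM in the 4 het runs. Of 9 measured 2 were higher (22.2%), with a highest log2 ratio of 2.65, and 4 lower (44.4%). The part of these markers in the matrix result was not tested.

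**Figure D4:**
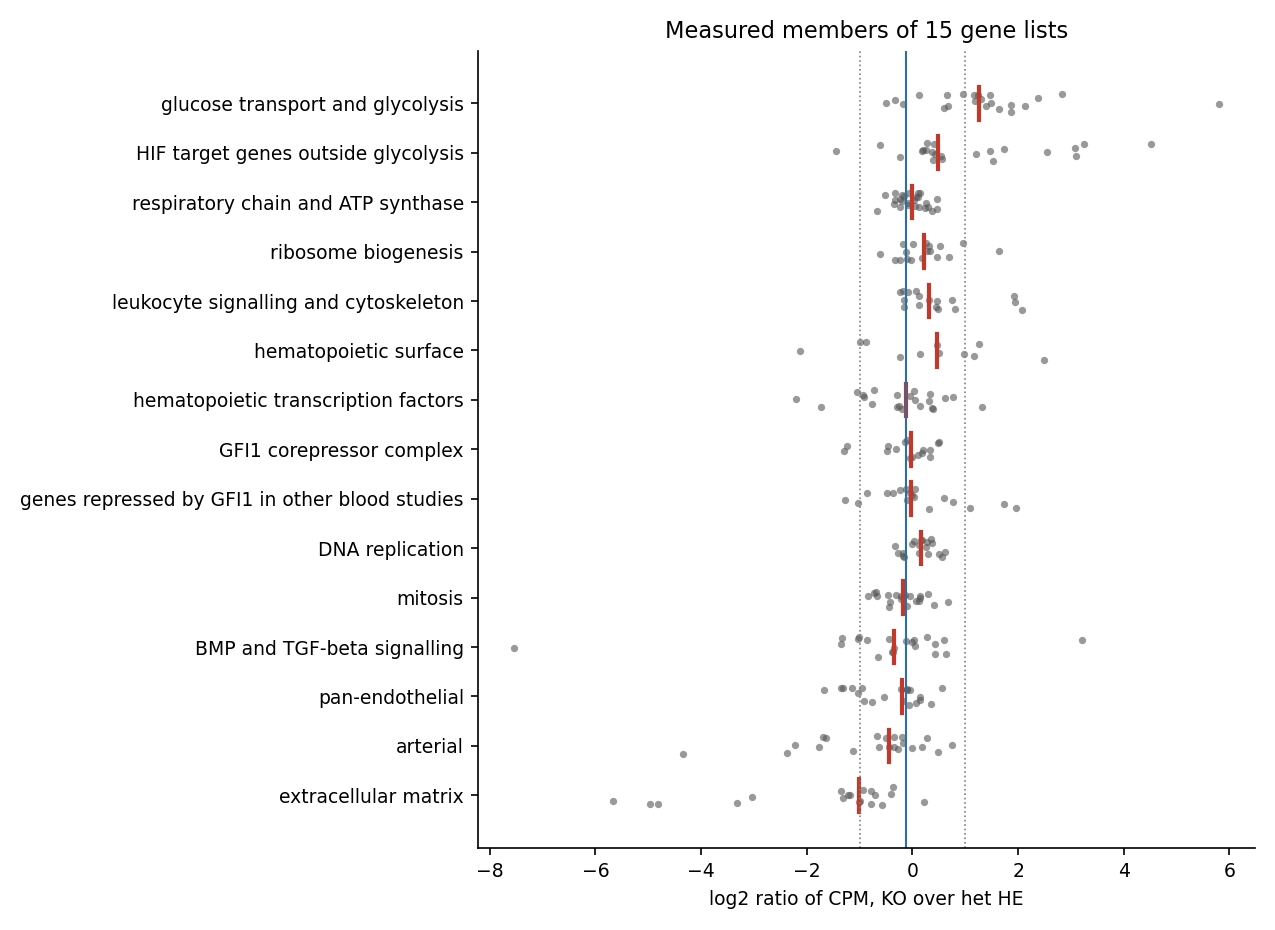
Log2 ratio of CPM, KO over het HE, of the measured members of 15 gene lists (points), with each list's median (red bar), the median of all 10962 measured genes at -0.12 (blue line) and the 2-fold limits (dotted). Glycolysis lies to the right with a median of 1.26, the matrix list to the left with -1.01, and the respiratory chain at -0.02.

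The partners and known targets of GFI1 were examined as a list each. Of 16 corepressor genes 0 were higher and 2 lower (12.5%, against 11.46% of all measured genes), with a median log2 ratio of -0.02. The 2 were Gse1 (7.84 against 18.6 CPM) and Rcor2 (5.10 against 12.6). Kdm1a, which encodes LSD1, had 134.4 CPM in KO against 148.6. Of 18 measured genes repressed by GFI1 in other blood studies 3 were higher (16.7%) and 2 lower (11.1%). Their median was -0.03, close to that of all genes. Egr1 had 171.5 CPM against 44.2, Socs3 24.996 against 7.48 and Csf1 89.02 against 41.6. Among male cells the log2 ratios were 1.58 for Egr1, 0.85 for Socs3 and 0.99 for Csf1, and against male cells of het run 1 they were 1.12, 0.18 and 0.85, so only Egr1 stayed past 2-fold. Gse1 and Rcor2 were at -0.16 and -0.099 among male cells. The lower genes were Id1 and Cdkn1a, the latter with 7.21 CPM against 17.4. Egr1 is also an immediate early gene. The 18 genes of the dissociation response summed to 3413 CPM in KO and 2831 in het HE, 32 of 37 KO cells lay above the het median and 12 genes had a ratio above 0. Egr1 alone was 2-fold higher over all het cells, 5 genes were against the later runs, and the median log2 ratio was 0.25 over all het cells and -0.11 against het run 1; the part of this response in other results was not tested. By contrast the heat shock genes Hspa1a (3.63 against 46.6 CPM) and Hspa1b (1.98 against 22.1) were lower. How far depended on the het cells used: their log2 ratios of -3.68 and -3.48 narrowed to -0.99 and -1.22 under the alternatives tried.

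Signalling lists were divided. Of 18 interferon and inflammatory genes 5 were higher (27.8%) and 1 lower (5.56%). Beyond each het run by at least 2-fold, 2 were higher and 1 lower. The median log2 ratio was 0.14, and -0.04 among male cells. Bst2, an interferon-induced membrane protein, had 155.8 CPM against 44.9 (runs 25.8 to 54.04). It lay above Endo, EHT and IAHC (26.4, 30.8 and 21.8). Ifitm1 had 187.2 CPM against 54.02, and Nfkbia, the NF-kappa-B inhibitor, had 61.98 against 233.5. Of 21 BMP and TGF-beta genes 1 was higher (4.76%) and 5 lower (23.8%). Bmper, a secreted BMP regulator, had 0 reads in 37 KO cells and 35.8 CPM in het HE from 25 cells. Over all het cells it was at least 186.9-fold lower against the limit of 3 reads. Its narrowest log2 ratio under the alternatives tried was -5.45.

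Across all genes, those with the widest differences by the naming rule were drawn from those that passed it, 1.69% of measured genes higher in KO and 4.03% lower. Besides the HIF targets already given, the 15 highest held Fggy, a carbohydrate kinase, with 34.6 CPM in KO from 15 of 37 cells and 0.309 CPM in het HE, and with at most 0.448 CPM in Endo, EHT, IAHC and the HE titled E11.5. Pde4b, a cyclic AMP phosphodiesterase, had 328.7 CPM against 64.9 and was read in 36 of 37 KO cells. Myl4, a myosin light chain, had 39.4 CPM against 6.90, and Rnd3, a small GTPase-like protein, 31.6 against 5.37. Gm2a, the GM2 ganglioside activator, had 45.3 CPM against 7.30, with reads in 24 of 37 KO cells and 12 of 79 het cells. Selenbp1, Rsl1, Gnpda1, Tmem150a and Rbm45 made up the rest, with 20.9 to 37.2 CPM in KO. Gnpda1 had a log2 ratio of 2.82 over all het cells and 0.81 against male cells of het run 1, and that of Myl4 fell from 2.51 to 0.92 in cells of at least 500000 reads.

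On the lower side Cwc22, a splicing factor that is expressed throughout, had 13.5 CPM in KO (13 of 37 cells) against 245.3 in het HE (71 of 79 cells), where the runs held 208.5 to 433.1 CPM; Endo had 195.8, EHT 242.02 and IAHC 162.5 CPM. AA465934 had 3.19 CPM in KO against 97.5 (runs 62.96 to 118.4), while EHT had 12.97 and IAHC 14.6. Trpc6, a calcium channel, had 0 reads in KO and 32.1 CPM in het HE. Over all het cells it was at least 167.7-fold lower against the limit of 3 reads. Its narrowest log2 ratio under the alternatives tried was -5.32. Col23a1 and Prss23, a serine protease, had 0.191 and 2.49 CPM against 26.8 and 79.1. The Wnt pathway genes Dkk2 (3.06 against 57.2 CPM) and Wnt11 (3.12 against 40.9), the semaphorin receptor Plxna2 (6.50 against 87.4) and the LIM factor Isl1 (6.89 against 85.1) were lower too, as were St8sia6, Gldc and Alox12. The difference in Cwc22 and AA465934 was as wide in males of het run 1, with log2 ratios of -4.41 and -4.91. That of Dkk2 was -0.63 there, against -4.22 over all het cells, and that of St8sia6 -1.39 against -4.01.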

How the data were processed

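Smart-seq2 reads of single sorted cells had been counted per gene. The authors deposited whole-number read counts without normalization, as the values show. The submitters' processing notes name bcl2fastq, STAR 2.4.2a, HTSeq 0.6.1p1, R 3.6.2 and GRCm38; strand setting and annotation release were not given in the sources used here, so antisense or overlapping partners and near-identical copies cannot be told apart. Of the 1288 cells counted there, 337 were used and 951 columns were not; 1 row that was cut off was left out, which left 36131 genes, and any genes beyond it were not analysed here. The table of the ACE sorts was not used here. No doublet caller was run. Of the hematopoietic surface list, 1 gene is not reported here.

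Reads were summed per sort and scaled to 1000000 reads (CPM); totals were 15682406 in KO and 51760988 in het HE. Sums below 3 reads entered log2 ratios as 3 reads. Poisson and Clopper-Pearson intervals are exact at 95% and cover counting error only, since PCR copies cannot be removed. A group is 1 sample, so no p-value was computed. Gene positions are from GENCODE vM21, promoters from RefSeq GRCm38.p6. On simulated reads with known 4-fold changes, 50 of 50 higher and 50 of 50 lower genes came out at least 2-fold apart. Of the unchanged genes 23 did, where 10592 genes counted as measured. At a log2 change of 1.5, 44 of 50 higher and 48 of 50 lower genes did. The simulated cells held no differences by run, embryo or sex, so these counts give no error rate for the real comparison. Python 3.11.15, numpy 2.4.6, pandas 2.3.3 and scipy 1.17.1 were used.

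Besides the genes of the gate, the targets and the given markers, up to 4 members per list of largest difference and the 15 highest and 15 lowest genes could be named, the latter where the higher sort reached 20 CPM and held reads in at least 25% of its cells, 2-fold apart by sums, by per-cell means and without the top cell. All members of the glycolysis list, and some members of other lists, were named for their role after values were seen. The cells, markers and lists were chosen with earlier results of these data known. Alternatives covered cell limits, depth, scaling, het runs, sex and low values.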

Additional observations from a re-analysis of the deposited data

How the results depend on the processing

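The counts of glycolysis genes and HIF targets at least 2-fold higher stayed within 1.5 times of the reported ones under all 16 alternatives (10 to 16 and 7 to 10). The glycolysis median ranged from 1.13 to 1.46 and the HIF target median from 0.47 to 0.97. The number of matrix genes lower was 6 without cell limits, 4 against het run 1 (median -0.58), 6 among male cells of that run and 4 beyond each run. The shares over all measured genes moved more, from 6.32% higher and 11.46% lower. In cells of at least 500000 reads they were 9.53% and 18.5%, with a minimum of 20 CPM 3.69% and 6.99%, and with no minimum 13.6% and 17.98%, or 2343 and 3096 genes. Beyond each run they were 2.13% and 2.13%. The share of higher genes was 10.4% against the later het runs and 15.8% among male cells of run 1 (1728 genes). The cause was not tested. The comparisons beyond each run and with males of 1 run were added after seeing the data.

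Of the named genes tried, 95 kept their sign throughout and 13 did not. Those at least 2-fold apart that turned round were Gfi1b (0.82 without cell limits, 2.04 against the later runs), Ptprc (-2.51 in cells of at least 500000 reads) and, against the later runs, Myb (1.20), Nfe2 (0.11), Ikzf1 (0.036) and Rcor2 (0.00016). A comparison of Xist-positive cells could not be run, since no KO cell had Xist reads. No paired analysis was possible because the cells share no replicate numbers and no test was made. With 37 KO cells and 1 sample per genotype, genes of few reads rest on few cells, and embryo, sex, run and genotype cannot be told apart beyond the comparisons given.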
